A study of Mus musculus with 11 samples.

Results

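The actin cytoskeleton and cell adhesion plaque genes are 44 genes chosen by name for actin filaments, their crosslinkers, myosin II, tropomyosins, focal adhesions and membrane linkers. Of these, 43 had a probe set with 1 gene symbol and were measured, out of 19938 named genes on the array. The gamma actin gene Actg1 lies only on a probe set that carries several symbols and was dropped. The arrays measured RNA of whole pancreas from wild-type C57Bl6J mice. Of the 11 arrays, 6 came from mice given 9 hourly intraperitoneal injections of caerulein, a peptide that overstimulates acinar cells and induces acute pancreatitis, and 5 from control mice given sodium chloride (NaCl). A caerulein dose of 50 mg/kg is stated in the series text (its unit stands here unchecked), which also counts 4 control mice where the titles name 5 control samples. No source used here gives age, sex or the time from the last injection to tissue collection.

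Actin monomers polymerise into filaments that nucleators branch, cofilins sever, crosslinkers bundle, tropomyosins coat and myosin II contracts. Focal adhesion proteins fix filaments to integrins, and the ezrin, radixin and moesin proteins fix them to the plasma membrane. In the resting acinar cell, filaments form a dense web under the apical membrane, where zymogen granules are released. High doses of secretagogue are known to disturb that web. Many of these genes are classic targets of serum response factor (SRF), which binds the CArG box and is driven by MRTF cofactors that sense free actin monomers.

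Promoters were therefore searched for CArG boxes (on this palindromic pattern both strands read alike). RefSeq promoter windows of build GRCm38.p6 matched 38 of the 43 measured genes by symbol, and the 250 bases before the start were used. Actb, Cotl1, Plec, Pxn and Parva had no window, so their promoters were not searched. A CArG box lay there in 4 of the 38 genes (10.5%) and in 1.62% of the 27018 genes with a window. The 4 stretches are shown because they come from the members with the element among the 38 searched. They are printed in 5′ to 3′ direction of the gene, with the box in capitals. They lie at chr14:20929148-20929397 (plus strand) for the vinculin gene, chr2:51149112-51149361 (minus strand) for Rnd3, chr10:79988350-79988599 (plus strand) for calponin 2 and chr2:156775214-156775463 (plus strand) for a myosin light chain.
Vcl: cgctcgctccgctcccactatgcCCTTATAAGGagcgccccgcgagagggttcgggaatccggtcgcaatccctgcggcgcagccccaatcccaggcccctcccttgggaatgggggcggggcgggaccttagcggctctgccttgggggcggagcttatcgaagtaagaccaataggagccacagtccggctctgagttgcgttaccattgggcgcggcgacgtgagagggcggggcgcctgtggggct
Rnd3: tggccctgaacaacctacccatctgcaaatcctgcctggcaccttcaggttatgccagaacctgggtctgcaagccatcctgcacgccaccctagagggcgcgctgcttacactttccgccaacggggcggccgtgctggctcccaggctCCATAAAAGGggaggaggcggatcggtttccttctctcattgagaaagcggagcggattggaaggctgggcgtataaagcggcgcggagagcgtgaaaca
Cnn2: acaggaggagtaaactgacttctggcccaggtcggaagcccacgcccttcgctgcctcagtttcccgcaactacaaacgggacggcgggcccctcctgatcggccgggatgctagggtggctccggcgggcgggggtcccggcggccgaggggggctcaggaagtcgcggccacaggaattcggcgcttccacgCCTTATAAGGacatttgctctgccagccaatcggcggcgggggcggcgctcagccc
Myl9: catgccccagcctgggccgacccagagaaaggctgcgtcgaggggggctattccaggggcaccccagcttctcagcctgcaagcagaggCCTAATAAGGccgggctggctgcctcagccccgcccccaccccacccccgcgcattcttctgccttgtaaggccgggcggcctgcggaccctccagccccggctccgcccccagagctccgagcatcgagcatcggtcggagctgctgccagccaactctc
The 4 genes with a box differed widely in their response. The log2 difference, caerulein mean minus NaCl mean, was 2.50 for Vcl, 0.90 for Rnd3, 0.47 for Cnn2 and -0.02 for Myl9, and the last did not pass the test. A CArG box with 1 C or G in its core (otherwise the same pattern, so no site counts as both) lay in 5 of 38 genes (13.2%), against 8.32% of all genes. It was found in Myl12a, Myl9, Rdx, Tpm3 and Vasp, so Myl9 holds both forms. The AP-1 element TGANTCA lay in 4 (10.5%, against 7.82%), namely Actn4, Ezr, Myl12a and Zyx. The TEAD element GGAATG, searched on both strands, lay in 8 (21.1%, against 14.4%). The window of the unmeasured Actg1 also holds a CArG box. A match is a description of the letters and not of binding.

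Most of the group was higher in caerulein pancreas. Of the 43 genes, 37 were higher and 0 lower (limma, adjusted p under 0.05 over all probe sets), among them beta actin, thymosin beta 10, both alpha-actinins, zyxin, vinculin and the myosin heavy chain Myh9. Among all 19938 genes, 54.6% passed in either direction, 20.3% higher and 34.3% lower. At least 2-fold rises were found for 29 members, against 6.14% of all genes, and at least 4-fold rises for 17, against 1.22%. The median difference of the 43 was 1.67 on the log2 scale, against -0.13 for all genes. The same 37 genes had no overlap, with the lowest caerulein array above the highest NaCl array, as had 16.7% of all genes. In 0 members were the caerulein arrays all below, as in 20.6% of all genes. The gap between the groups ranged from 0.16 in Cnn2 to 3.23 in Tmsb10. By size of difference, 28 members were among the highest 5% of all genes and 14 among the highest 1%. The members were chosen with earlier results of these data known, so these shares are a description and not a test.

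The 6 genes that did not pass were Cotl1, Myh10, Myl9, Tpm2, Parva and Cdc42ep3. The number of members higher was 36 to 37 under every alternative except an equal mean of reference genes on each array, a scaling that lowered the median of all genes from -0.13 to -0.49. With it 33 were higher and 6 lower, the 6 being those that had not passed, against 11.7% and 75.3% of all genes. Cnn2, Cnn3, Pxn and Rdx lost their calls with this scaling, and Rdx also when quantile normalisation was repeated. With 75th percentiles made equal, 18.7% of all genes were higher and 45.9% lower. Repeated quantile normalisation gave 19.3% and 23.4%, and cyclic loess gave 21.9% and 18.2%. In whole tissue, a change in the share of a cell type and a change in RNA per cell cannot be told apart.

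**Figure D1:**
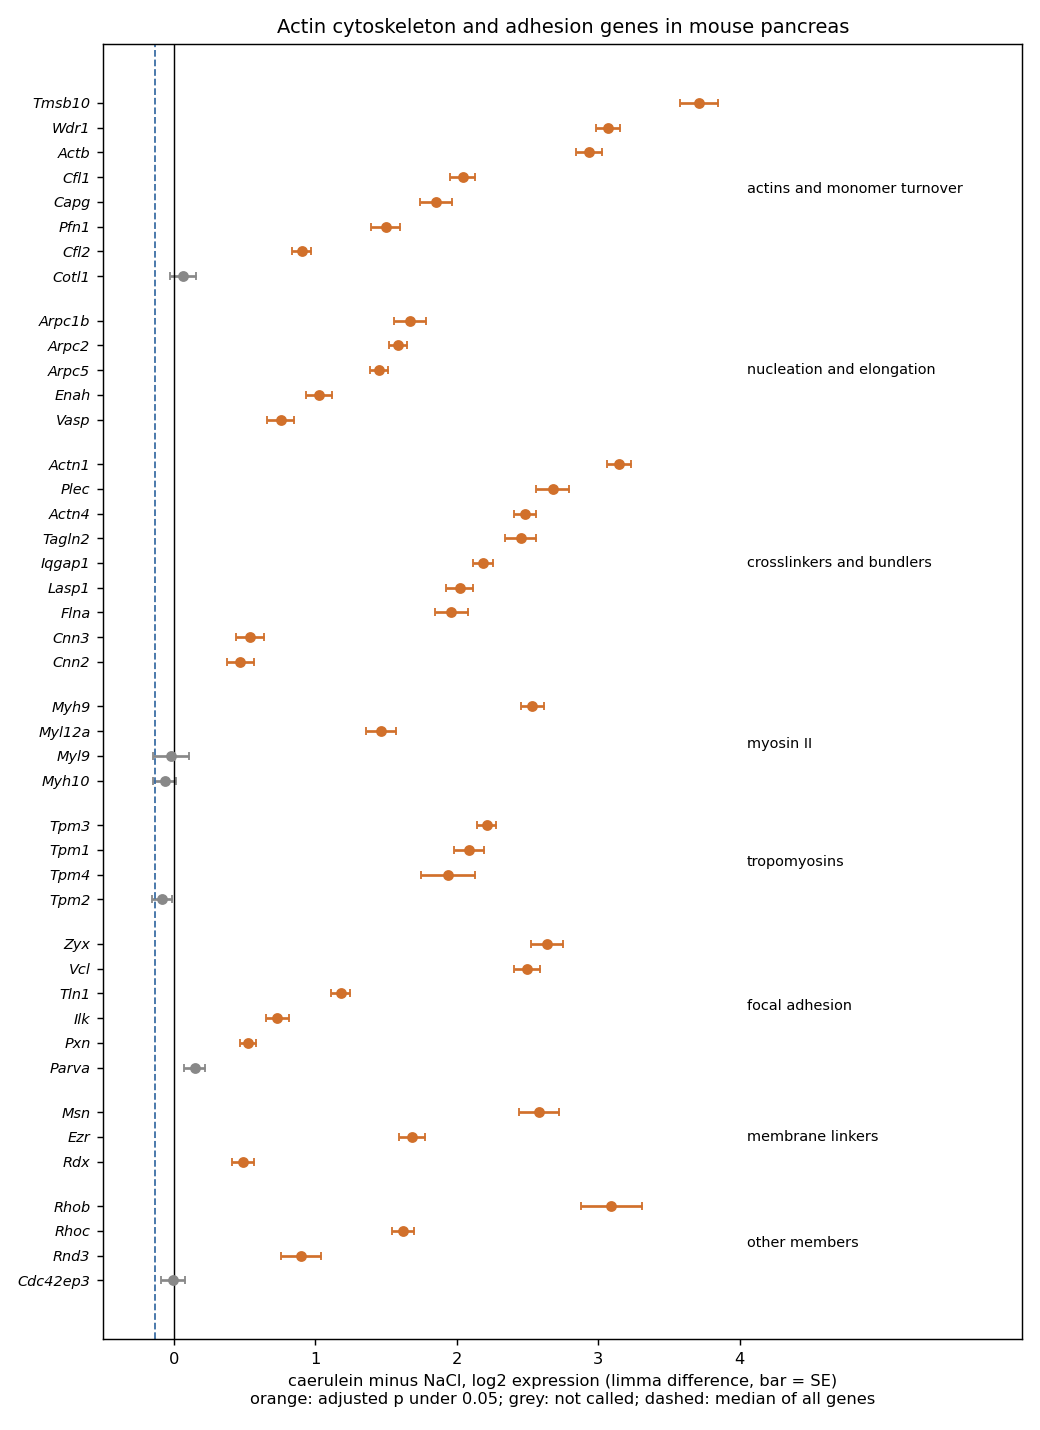
Difference between caerulein and NaCl for the 43 measured genes by role, as the limma log2 difference with its SE. Orange points passed an adjusted p under 0.05, grey points did not, and the dashed line is the median of all genes (-0.13). All 37 orange points lie to the right of 0, from 0.47 for Cnn2 to 3.71 for Tmsb10.

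The actin monomer and the proteins that recycle it were among the strongest rises, with 7 of 8 measured genes higher. Actb, the beta actin of non-muscle cells, was at 11.42, 11.18, 10.86, 11.12 and 11.03 on the 5 NaCl arrays and 13.92 to 14.16 (median 14.07) on the 6 caerulein arrays. Every caerulein array was far above the control arrays, and the mean rose from 11.12 ± 0.21 (SD, n = 5) to 14.06 ± 0.08 (SD, n = 6). The difference was 7.64-fold (log2 difference 2.93, SE 0.09, limma adjusted p = 1.4e-10). Its caerulein level is near the highest value on any array (15.05), and whether the probes were saturated was not tested. Tmsb10, a small peptide that holds actin monomers, was at 6.94, 7.02, 6.14, 6.71 and 6.70 on the 5 NaCl arrays and 10.25 to 10.50 (median 10.44) on the 6 caerulein arrays. The control arrays spread over almost 1 log2 unit, with NaCl replicate 3 lowest, and the caerulein arrays lay close together. Tmsb10 rose 13.1-fold (log2 difference 3.71, SE 0.13, limma adjusted p = 4.4e-10), the largest rise of the group, and its other probe set gave 3.76. Wdr1, the partner of cofilin in filament disassembly, was at 7.26, 6.84, 6.92, 7.03 and 6.90 on the 5 NaCl arrays and 9.95 to 10.22 (median 10.04) on the 6 caerulein arrays. The groups did not overlap, and the rise was 8.39-fold (log2 difference 3.07, SE 0.08, limma adjusted p = 4.2e-11).

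The cofilins that sever filaments both rose, Cfl1 4.12-fold and Cfl2, the form best known from muscle, 1.87-fold. Pfn1, the profilin that delivers monomers to growing ends, rose 2.82-fold. Capg, a capping protein abundant in macrophages, rose 3.61-fold, from 5.42 ± 0.09 (SD, n = 5) to 7.28 ± 0.26 (SD, n = 6). Cotl1, the coactosin-like protein that is abundant in leukocytes, was at 6.86 to 7.05 in NaCl and 6.80 to 7.27 in caerulein, and its groups overlapped. The difference was 0.067 (95% interval -0.13 to 0.27, limma adjusted p = 0.576). Actin, cofilin, profilin and thymosin genes have near-identical copies in the mouse genome, and whether the probes separate them was not tested.

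Nucleation and elongation genes rose in 5 of 5 cases, with a median difference of 1.45. Arpc1b, a subunit of the Arp2/3 complex that starts filament branches, was at 7.88, 7.97, 7.79, 8.27 and 7.72 on the 5 NaCl arrays and 9.34 to 9.82 (median 9.58) on the 6 caerulein arrays. Arpc2, another subunit, was at 8.03, 8.05, 7.95, 8.07 and 8.11 on the 5 NaCl arrays and 9.52 to 9.74 (median 9.61) on the 6 caerulein arrays, with very little spread in the control group. Both groups were fully apart, with rises of 3.18-fold (log2 difference 1.67, SE 0.11, limma adjusted p = 1.3e-07) for Arpc1b and 3.01-fold (log2 difference 1.59, SE 0.06, limma adjusted p = 1.1e-09) for Arpc2. Arpc5 rose 2.73-fold. These 3 subunits lay within 1.45 to 1.67 of log2 difference, and the other probe set of Arpc1b gave 1.82. Other subunits, outside the members, differed less: Arpc4 by 0.91, Actr3 by 0.54, Arpc1a by 0.32 and Arpc5l by 0.08, the last not past the threshold. The elongation factors Enah and Vasp, which extend filaments at adhesions, rose 2.04-fold and 1.69-fold.

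Crosslinkers and bundlers were higher in 9 of 9 cases, with a median of 2.19. Actn1, the alpha-actinin of stress fibres and adhesions, was at 7.61, 7.41, 7.22, 7.46 and 7.31 on the 5 NaCl arrays and 10.38 to 10.69 (median 10.56) on the 6 caerulein arrays. Its arrays were tight in both groups and 2.77 apart at the nearest, and the rise was 8.87-fold (log2 difference 3.15, SE 0.09, limma adjusted p = 4.4e-11). Actn4, its close relative, rose 5.59-fold. Plec, the plectin that links actin to keratin filaments, was at 6.45, 6.51, 6.20, 6.76 and 6.81 on the 5 NaCl arrays and 8.95 to 9.47 (median 9.19) on the 6 caerulein arrays. Plec rose 6.40-fold (log2 difference 2.68, SE 0.12, limma adjusted p = 2.7e-09), with no overlap. Tagln2, Iqgap1, Lasp1 and the filamin gene Flna rose 5.48-fold, 4.56-fold, 4.06-fold and 3.90-fold. Tagln2 stabilises filaments, Iqgap1 is a scaffold for Rac and Cdc42, and Lasp1 sits in adhesions. The calponins Cnn2 and Cnn3 were the smallest rises of this group, at 0.47 and 0.54 on the log2 scale. With an equal reference gene mean they no longer passed (limma adjusted p = 0.263 and 0.101).

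**Figure D2:**
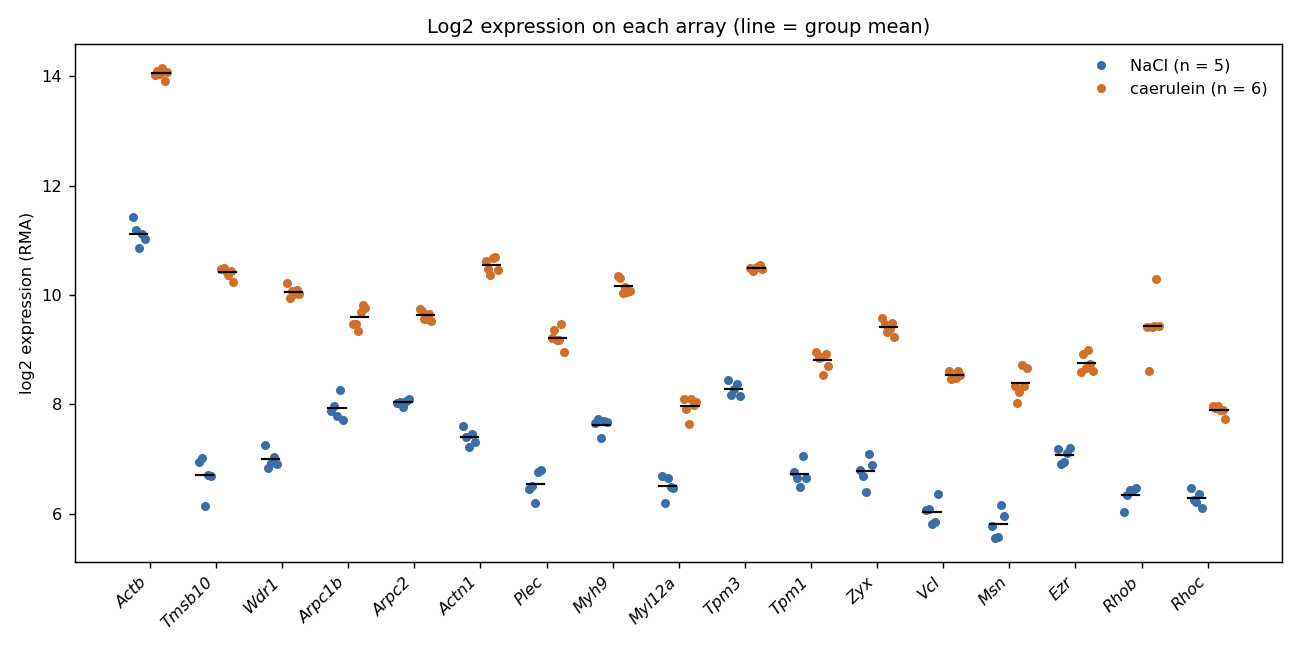
Log2 expression on each array for Actb and the 2 genes with the largest difference in each role group; blue points are the 5 NaCl arrays, orange points the 6 caerulein arrays and lines the group means. For all 17 genes the caerulein arrays lie above the NaCl arrays, and Rhob has the widest caerulein spread (8.61 to 10.30).

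Myosin II responded unevenly, with 2 of 4 genes higher. Myh9, the heavy chain of non-muscle myosin IIA, was at 7.65, 7.74, 7.38, 7.69 and 7.67 on the 5 NaCl arrays and 10.04 to 10.34 (median 10.11) on the 6 caerulein arrays. NaCl replicate 3 was lowest, and all caerulein arrays were above 10. Myh9 rose 5.80-fold (log2 difference 2.54, SE 0.08, limma adjusted p = 2.4e-10), and a dimmer probe set of the gene gave 1.07 (limma adjusted p = 1.2e-06). Myh10, the heavy chain of non-muscle myosin IIB, was at 5.96 to 6.25 in NaCl and 5.88 to 6.19 in caerulein. The groups overlapped, and the difference was -0.065 (95% interval -0.24 to 0.11, limma adjusted p = 0.527). Myl12a, a regulatory light chain of non-muscle myosin, was at 6.69, 6.20, 6.65, 6.49 and 6.47 on the 5 NaCl arrays and 7.65 to 8.11 (median 8.01) on the 6 caerulein arrays. It rose 2.76-fold (log2 difference 1.47, SE 0.10, limma adjusted p = 2.1e-07). Outside the members, the light chain gene Myl12b was at a mean of 8.52 in NaCl and 8.49 in caerulein (limma adjusted p = 0.845). The heavy chain gene Myh14, also outside the members, was lower by 0.26 on the log2 scale (limma adjusted p = 0.0077). Myl9, the light chain most abundant in smooth muscle, was at 5.51 to 6.08 in NaCl and 5.33 to 5.97 in caerulein, with a difference of -0.021 (95% interval -0.29 to 0.25, limma adjusted p = 0.907). Its promoter holds the CArG box printed above, and its arrays overlapped between the groups.

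Of the tropomyosins, which coat filaments and set what can bind them, Tpm1, Tpm3 and Tpm4 rose and Tpm2 did not pass. Tpm1 was at 6.76, 6.65, 6.49, 7.05 and 6.66 on the 5 NaCl arrays and 8.54 to 8.97 (median 8.86) on the 6 caerulein arrays, and rose 4.25-fold (log2 difference 2.09, SE 0.11, limma adjusted p = 8.2e-09). Tpm3 was at 8.45, 8.17, 8.28, 8.37 and 8.16 on the 5 NaCl arrays and 10.45 to 10.55 (median 10.49) on the 6 caerulein arrays. Its caerulein arrays had the smallest spread of all members (SD 0.035), and the rise was 4.63-fold (log2 difference 2.21, SE 0.07, limma adjusted p = 9.1e-11). The 4 probe sets of Tpm3 disagreed in size, with differences of 2.21, 0.80, 1.35 and 0.30, although all passed. The gene has near-identical copies, and which probe sets match the gene itself was not tested. Tpm4 was at 7.90, 8.93, 9.07, 8.01 and 8.57 on the 5 NaCl arrays and 10.34 to 10.56 (median 10.41) on the 6 caerulein arrays. The control arrays were widely spread (SD 0.53), and the rise was 3.84-fold (log2 difference 1.94, SE 0.19, limma adjusted p = 4.0e-06). Tpm2, known from muscle and fibroblasts, was at 4.77 to 4.97 in NaCl and 4.67 to 4.96 in caerulein, with a difference of -0.082 (95% interval -0.24 to 0.07, limma adjusted p = 0.373). Only 40.0% of probe sets were dimmer than Tpm2, and whether it lay above background is unknown.

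Focal adhesion genes were higher in 5 of 6 cases, over a wide range. Zyx, the zyxin that gathers at strained filaments, was at 6.80, 6.68, 6.40, 7.09 and 6.89 on the 5 NaCl arrays and 9.23 to 9.58 (median 9.42) on the 6 caerulein arrays. It rose 6.22-fold (log2 difference 2.64, SE 0.11, limma adjusted p = 1.8e-09). Vcl, the vinculin that couples talin to actin, was at 6.06, 6.09, 5.82, 5.84 and 6.35 on the 5 NaCl arrays and 8.47 to 8.62 (median 8.51) on the 6 caerulein arrays. The highest control array, NaCl replicate 5, was still 2.12 below the lowest caerulein array, and Vcl rose 5.66-fold (log2 difference 2.50, SE 0.09, limma adjusted p = 5.9e-10). Tln1, the talin that activates integrins, rose 2.27-fold. Smaller were the rises of the integrin-linked kinase gene Ilk (1.66-fold) and of Pxn, the adaptor paxillin (1.44-fold). Pxn lost its call with an equal reference gene mean (limma adjusted p = 0.0754). Parva, the parvin that forms a complex with Ilk, was at 6.92 to 7.24 in NaCl and 7.15 to 7.33 in caerulein, and its difference was 0.15 (95% interval -0.02 to 0.31, limma adjusted p = 0.139).

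All 3 membrane linkers rose, to unequal extents. Msn, the moesin gene, was at 5.78, 5.55, 5.58, 6.16 and 5.96 on the 5 NaCl arrays and 8.03 to 8.72 (median 8.34) on the 6 caerulein arrays. It rose 5.98-fold (log2 difference 2.58, SE 0.14, limma adjusted p = 1.8e-08). Ezr, the ezrin of epithelial microvilli, was at 7.18, 6.91, 6.95, 7.10 and 7.19 on the 5 NaCl arrays and 8.59 to 9.00 (median 8.70) on the 6 caerulein arrays, and rose 3.21-fold (log2 difference 1.68, SE 0.09, limma adjusted p = 1.9e-08). Rdx, the radixin gene, rose only 1.40-fold, from 8.09 ± 0.10 (SD, n = 5) to 8.58 ± 0.13 (SD, n = 6). The call for Rdx was lost after a second quantile normalisation (limma adjusted p = 0.0578) and with an equal reference gene mean (limma adjusted p = 0.161).

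Of the 4 other members, 3 were higher. Rhob was at 6.04, 6.33, 6.44, 6.44 and 6.47 on the 5 NaCl arrays and 8.61 to 10.30 (median 9.43) on the 6 caerulein arrays. Caerulein replicate 2 was lowest at 8.61 and replicate 5 highest at 10.30, the widest spread of any member in caerulein (SD 0.53), while 4 arrays lay at 9.41 to 9.44. Rhob rose 8.54-fold (log2 difference 3.09, SE 0.22, limma adjusted p = 1.8e-07). Rhoc was at 6.48, 6.25, 6.22, 6.37 and 6.10 on the 5 NaCl arrays and 7.73 to 7.98 (median 7.92) on the 6 caerulein arrays, and rose 3.07-fold (log2 difference 1.62, SE 0.08, limma adjusted p = 4.9e-09). Rnd3 rose 1.87-fold from a low level, from 4.91 ± 0.27 (SD, n = 5) to 5.81 ± 0.25 (SD, n = 6). Cdc42ep3, an effector of Cdc42, was at 4.20 to 4.45 in NaCl and 4.19 to 4.57 in caerulein, with a difference of -0.0083 (95% interval -0.19 to 0.17, limma adjusted p = 0.944). Only 30.5% of probe sets were dimmer, and whether it lay above background is unknown.

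Related genes, each read by 1 probe set, differed in the size of their change. Probe sets of the same gene can differ too, as those of Myh9 gave 2.54 and 1.07. Whether a pair differed through its RNA or its probes was not tested. For 16 pairs of relatives the log2 difference between the genes was taken on each array, which cancels any shift of a whole array, and compared between groups with a two-sided exact permutation test over the 11 arrays. The smallest p this test allows is 0.00216. The change was unequal in 12 of 16 pairs (Benjamini-Hochberg over the pairs). No such share was taken over pairs of unrelated genes, so whether the count is particular to relatives was not tested. Of all genes, 54.6% had passed in either direction. Several pairs share a gene, and some set a called gene against Myh10, Myl9 or Tpm2, which had not passed. Myh9 minus Myh10 went from 1.54 ± 0.13 (SD, n = 5) in NaCl to 4.14 ± 0.21 (SD, n = 6) in caerulein (exact permutation p = 0.00216, adjusted 0.00385). Msn minus Rdx went from -2.28 ± 0.18 (SD, n = 5) in NaCl to -0.19 ± 0.25 (SD, n = 6) in caerulein (exact permutation p = 0.00216, adjusted 0.00385). Moesin thus changed more than radixin, and Ezr, in between, changed more than Rdx by 1.19 and less than Msn by 0.90 on the log2 scale. Cfl1 minus Cfl2 went from 0.45 ± 0.27 (SD, n = 5) in NaCl to 1.59 ± 0.14 (SD, n = 6) in caerulein (exact permutation p = 0.00216, adjusted 0.00385), and Rhob minus Rhoc from 0.06 ± 0.30 (SD, n = 5) in NaCl to 1.53 ± 0.55 (SD, n = 6) in caerulein (exact permutation p = 0.00433, adjusted 0.0063). Both first-named genes changed more than their relatives.

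Actn1 changed more than Actn4, since Actn4 minus Actn1 went from 0.57 ± 0.14 (SD, n = 5) in NaCl to -0.09 ± 0.17 (SD, n = 6) in caerulein (exact permutation p = 0.00216, adjusted 0.00385). Myl12a changed more than Myl9 by 1.49 and Enah more than Vasp by 0.27 (exact permutation p = 0.00216 and 0.00866, adjusted 0.00385 and 0.0115). The signals of Tpm1, Tpm3 and Tpm4 each changed more than that of Tpm2, by 2.17, 2.29 and 2.02 (exact permutation p = 0.00216, adjusted 0.00385 for each). Whether Tpm2 lay above background is unknown, and a probe set at background cannot show a change, so these 3 of the 12 unequal pairs show only that Tpm1, Tpm3 and Tpm4 moved relative to the Tpm2 signal. No difference in change was shown among Tpm1, Tpm3 and Tpm4, with adjusted exact permutation p of 0.341, 0.626 and 0.359. Averaged over its 4 probe sets, Tpm3 changed less than Tpm1 by 0.92 and less than Tpm4 by 0.77 (adjusted exact permutation p = 0.00315 for both). The calponin pair Cnn2 and Cnn3 did not differ past the threshold either (difference of the changes -0.067, adjusted exact permutation p = 0.626).

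**Figure D3:**
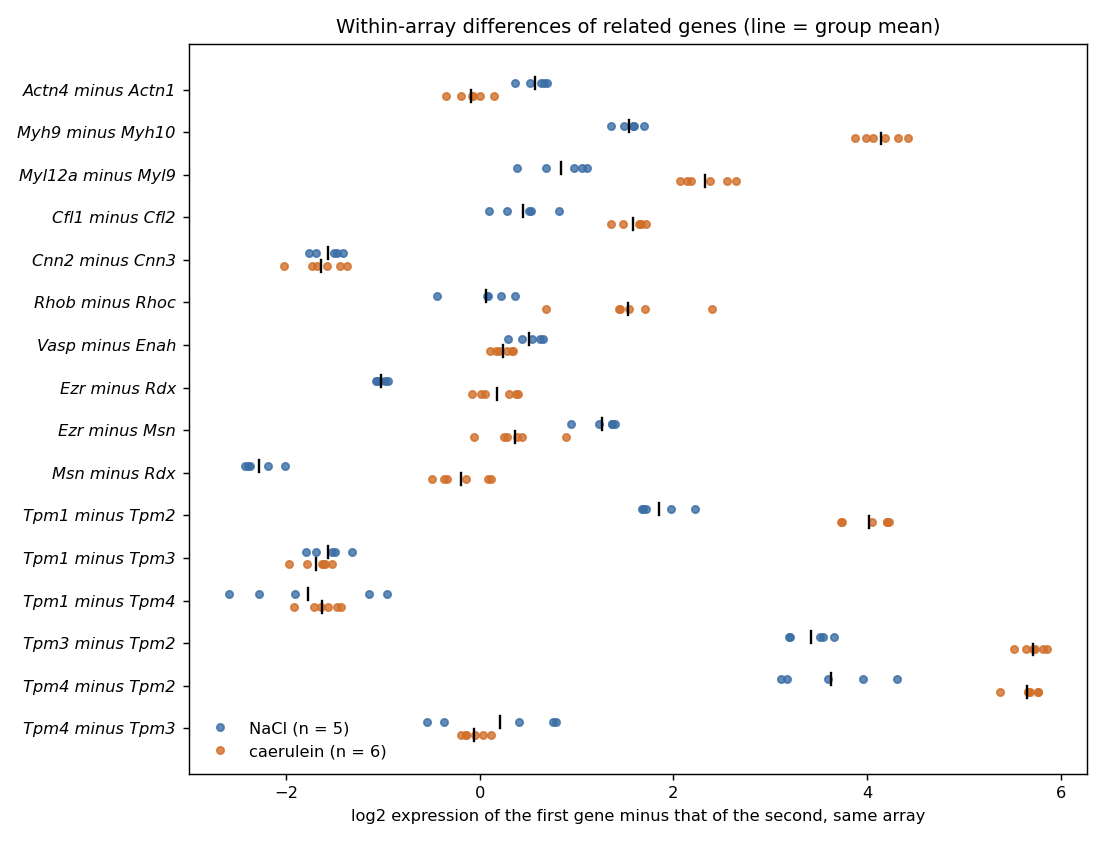
Within-array log2 difference between 2 related genes for 16 pairs; blue points are the 5 NaCl arrays, orange points the 6 caerulein arrays and lines the group means. Myh9 minus Myh10 moved from a mean of 1.54 to 4.14, while Cnn2 minus Cnn3 stayed within overlapping ranges.

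Other genes of the pathway, from 7 lists that hold none of these members, were also mostly higher. These lists too were chosen with earlier results of these data known. Together 81 of 123 measured genes were higher (65.9%) and 17 lower, against 20.3% and 34.3% of all genes. With an equal reference gene mean 62 were higher and 38 lower, against 11.7% and 75.3% of all genes. Genes of filament capping, severing and the monomer pool were higher in 13 of 20 cases and lower in 2, with a median of 0.80. Dstn, the destrin that disassembles filaments like cofilin, rose 12.2-fold (log2 difference 3.61, SE 0.08, limma adjusted p = 9.8e-12) and Cap1, which helps cofilin, 5.09-fold. Pls1, a bundling plastin of microvilli, fell 1.45-fold. Among 15 Arp2/3, WAVE and formin genes, 12 were higher and 1 lower (median 0.59). Cttn, the cortactin that stabilises branches, rose 4.52-fold and the formin Daam1 3.70-fold, whereas Wasf1, a WAVE protein, fell 1.25-fold. After a second quantile normalisation 9 of these 15 were higher and 0 lower.

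Genes for light chain control and other myosins numbered 13, of which 7 were higher and 3 lower (median 0.54). Myo1c, a motor that binds membranes, rose 6.02-fold and the myosin Myo9b 3.77-fold, and Myo6, which moves toward the pointed end, fell 1.40-fold. Other focal adhesion genes were higher in 18 of 26 cases and lower in 2, with a median of 0.67. Tes and Pdlim1, both LIM domain proteins, rose 4.63-fold and 3.75-fold, and Lims2, a partner of Ilk, fell 1.41-fold.

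Membrane skeleton and junction linkers were higher in 11 of 17 cases and lower in 4, with a median of 0.60. E-cadherin (Cdh1) rose 11.1-fold and its actin link alpha-catenin (Ctnna1) 3.76-fold, while utrophin (Utrn) fell 1.65-fold. Plakins and intermediate filament linkers were higher in 8 of 12 cases and lower in 2, with a median of 1.09, led by Nes (5.44-fold) and the desmosome gene Pkp2 (5.19-fold). Synm, an intermediate filament protein of muscle, fell 1.38-fold. Of 20 genes for SRF, its cofactors and SRF-responsive genes, 12 were higher and 3 lower (median 0.41). This median was 0.045 with an equal reference gene mean, where 8 were higher and 7 lower. That scaling moved the median of all genes from -0.13 to -0.49, with 11.7% of all genes higher and 75.3% lower. Egr1 and Mcl1, an immediate-early factor and a survival protein, rose 4.01-fold and 3.16-fold, and Fhl1 fell 1.32-fold. Srf itself, named after its value was seen, rose 3.08-fold (limma adjusted p = 4.6e-08).

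**Figure D4:**
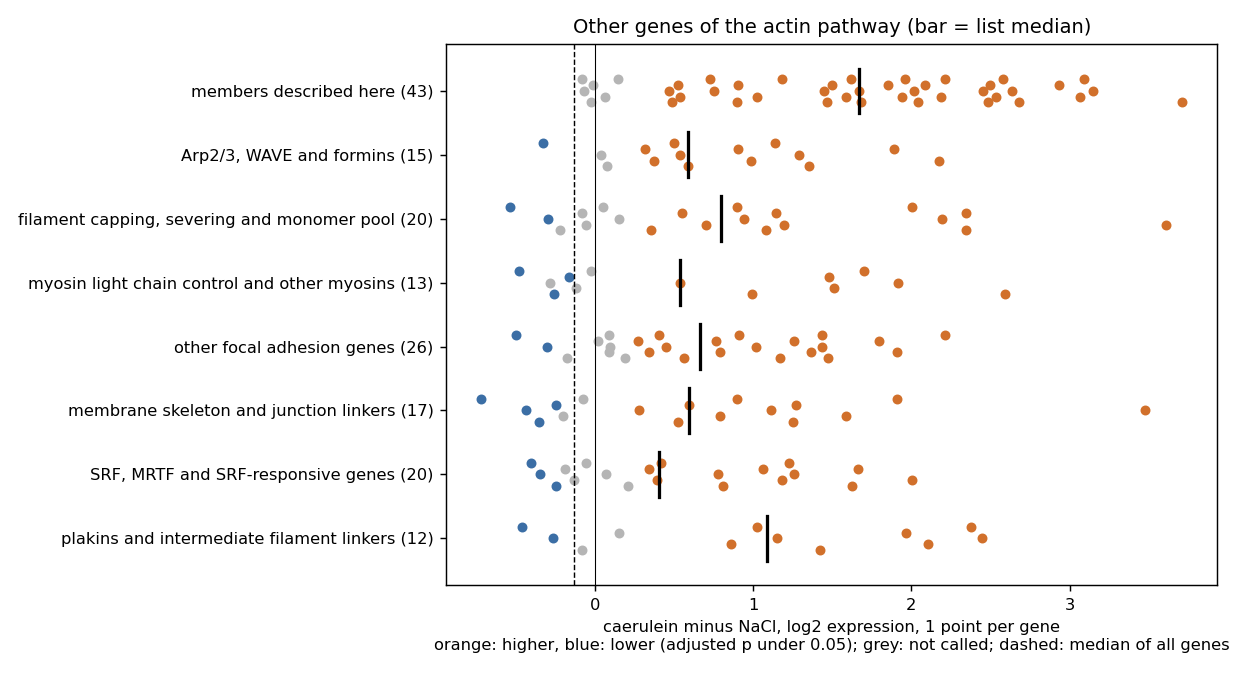
Log2 difference of each gene in the 43 members and in 7 other lists of the pathway, with 1 point per gene, the number measured in brackets and a bar at the list median. The members' median of 1.67 is to the right of all 7 other medians, which run from 0.41 to 1.09.

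Markers of the cell types a whole pancreas can hold were read beside these genes, with 20.3% of all genes higher and 34.3% lower as the background for each count. Smooth muscle and pericyte markers, which include muscle actin and myosin genes, were higher in 2 of 12 cases and lower in 3, shares below those of all genes in both directions. Their mean level per array was 5.86 to 6.08 in NaCl and 5.83 to 6.02 in caerulein, with log2 differences of 0.43 in Acta2 and -0.40 in Myh11, 2 markers named after their values were seen. The part of smooth muscle in the values of Myl9 and Tpm2 was not tested. Fibroblast and stellate markers were higher in 2 of 10 cases and lower in 3 (mean level 6.52 to 6.85 and 6.38 to 6.96), and endothelial markers higher in 3 of 10 and lower in 2 (6.27 to 6.37 and 6.28 to 6.44).

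Macrophage markers moved in part with the group, with 7 of 12 higher and 0 lower. Their mean level was 5.51 to 5.63 in NaCl and 6.12 to 6.92 in caerulein. The 7 were Cd14, Lyz2, Cd68, Itgam, Ccr2, Fcgr1 and Adgre1, while Csf1r, Mrc1, C1qa, C1qb and Ms4a7 did not pass. The part of macrophages in the rise of members such as Capg, Msn and Tmsb10 was not tested. The cytoskeletal genes largely restricted to leukocytes, such as Coro1a and Lcp1, were higher in 4 of 12 cases and lower in 3, with a mean level of 5.86 to 6.07 and 5.82 to 6.20. Neutrophil markers were higher in 1 of 12 and lower in 3 (4.64 to 4.72 and 4.48 to 5.02). Platelet markers were higher in 1 of 6 and lower in 4 (5.47 to 5.61 and 5.27 to 5.47), and lymphocyte markers lower in 6 of 8 and higher in 0 (5.21 to 5.37 and 4.87 to 5.19).

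Duct markers also moved, with 4 of 8 higher and 2 lower (mean level 6.33 to 6.51 in NaCl and 7.03 to 7.29 in caerulein), and acinar markers were lower in 6 of 11 cases and higher in 0 (12.51 to 12.69 and 11.62 to 11.82). Among the duct markers, the log2 difference was 4.39 in Krt19, 1.94 in Krt7, 0.44 in Cftr and 0.29 in Car2. It was -1.14 in Muc1 and -0.40 in Ambp, and Sox9 and Slc4a4 did not pass. The part of duct and acinar cells in the rise of the members was not tested. Among the acinar markers, which check the label of pancreas, Cpa1 and Ctrb1 gave bright signals in both groups (means of 14.60 to 14.64). Cel, Cela1 and Cela2a lay at means of 14.17 to 14.43, and none of these 5 passed. The highest value on any array was 15.05, and whether their probes were saturated was not tested. The 6 that fell included Cckar, from 11.10 in NaCl to 7.05 in caerulein, and Bhlha15, from 9.65 to 7.65. These markers were named after their values were seen. Mesothelial markers were called in 0 of 5 cases (5.79 to 6.07 and 5.60 to 6.00) and islet markers lower in 1 of 6 (7.99 to 9.36 and 8.18 to 9.20). With an equal reference gene mean, which put 11.7% of all genes higher and 75.3% lower, macrophage markers were higher in 6 of 12 cases and lower in 2. Smooth muscle markers were lower in 9 of 12 and leukocyte actin genes in 8 of 12, shares no larger than that of all genes. With that scaling the duct median changed from 0.35 to -0.013 and the endothelial median from 0.14 to -0.22. The median of all genes changed from -0.13 to -0.49.

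**Figure D5:**
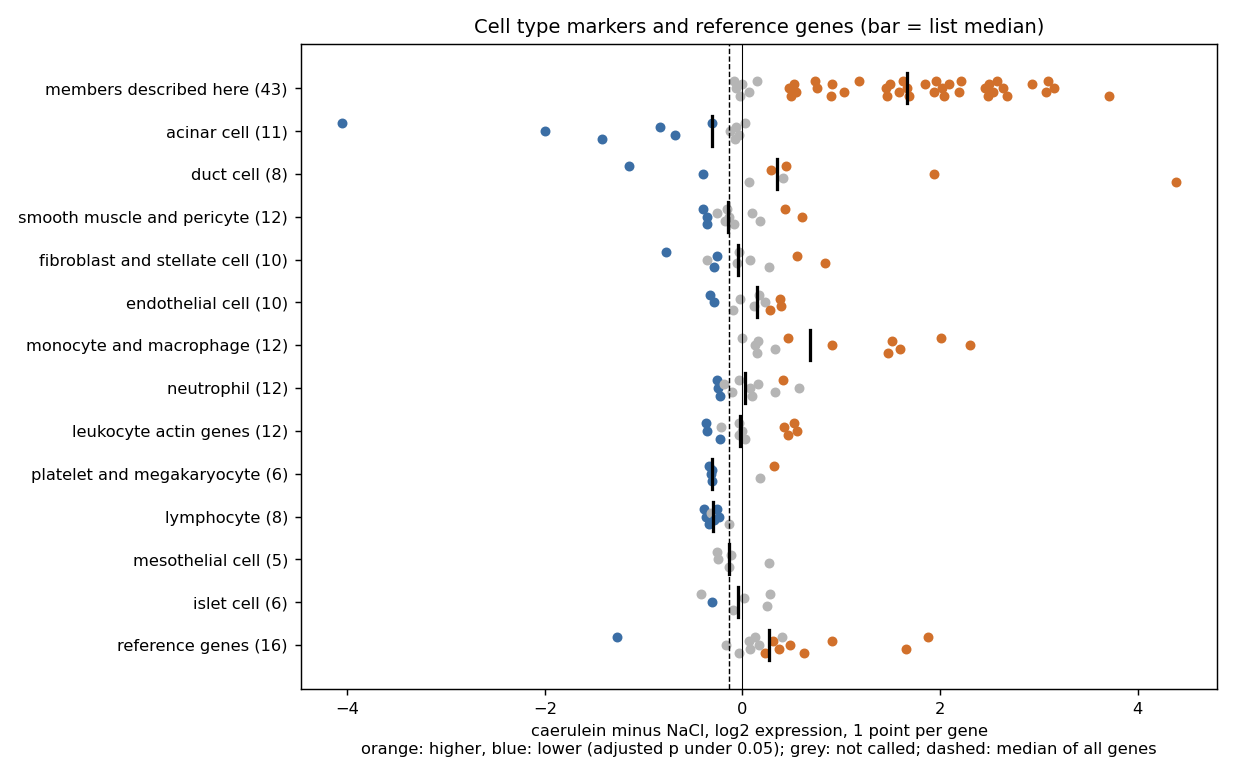
Log2 difference of each gene in the 43 members, 12 lists of cell type markers and a list of reference genes, with 1 point per gene, the number measured in brackets and a bar at the list median. The members' median of 1.67 compares with 0.69 for macrophage markers and -0.14 for smooth muscle markers.

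The arrays within a group differed little for these genes. The median deviation of the 43 members from their group mean was -0.09 to 0.06 on the NaCl arrays and -0.06 to 0.07 on the caerulein arrays. NaCl replicate 1 was the highest control array in 15 members, and NaCl replicate 3 the lowest in 16. Caerulein replicates 5 and 1 were highest in 14 and 12 members, and replicates 2 and 3 lowest in 12 and 11. The SD over arrays had a median of 0.17 in NaCl and 0.13 in caerulein. Over all probe sets, arrays of a group correlated at 0.981 to 0.991, and arrays of different groups at 0.938 to 0.955.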

How the data were processed

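Per the submitters' processing notes, the authors made the deposited log2 values with RMA, oligo and limma, of unstated version and genome build. By convention RMA subtracts background, normalises between arrays and summarises each probe set in 1 value. No detection calls were used here, so background is unknown. A gene's rank among probe sets by signal is given only to mark dim or very bright probe sets, since signals of different probe sets are not comparable amounts of RNA. Each of the 11 arrays is 1 sample; the labels do not state that every sample is its own mouse, and p-values cover only sample-to-sample spread, which may be technical. Precision is limited by how many arrays there are.

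Each gene was represented by its brightest single-symbol probe set, by the mean over the 11 arrays (of 35556 probe sets GEO's platform annotation gives 21789 a single symbol, 1621 several and 12146 none, leaving 19938 genes); 4 members had more than 1. Caerulein and NaCl were compared by lmFit and eBayes (limma 3.58.1, R 4.3.3, no covariates, two-sided), with Benjamini-Hochberg adjustment over all probe sets and a threshold of 0.05. No protein sequences were used here, and 1 pathway list is not reported here. The fit was tested on simulated data. The members and lists were chosen with earlier results of these data known. Per-array values are given for the 2 members with the largest differences in each role group and Actb, and for Tpm4, added after its spread was seen. Of each pathway list the 2 genes past the threshold with the largest differences and the largest against the majority are named. Alternatives were another variance prior, array weights, 2 rescalings, 2 renormalisations, a filter on the dimmer 50 percent, averaged probe sets, a replicate block and leaving out each array.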

Additional observations from a re-analysis of the deposited data

Results flagged for a closer look

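Among 86 groups (43 genes in NaCl and in caerulein), 4 held an array far from the others by Dixon's criterion, where chance flags about 1 in 20. Vasp was at 7.77 in caerulein replicate 2, against 7.93 to 8.03 on the other caerulein arrays. Rhoc was at 7.73 in caerulein replicate 6, against 7.90 to 7.98. Myh9 was at 7.38 in NaCl replicate 3, against 7.65 to 7.74. Myl9 was at 6.08 in NaCl replicate 5, against 5.51 to 5.60 on the other NaCl arrays, and without that array its difference was 0.085 in place of -0.021, still not past the threshold (limma adjusted p = 0.547).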

How the results depend on the processing

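Of the 37 members called higher, 33 kept direction and call under all 20 alternatives; Cnn2, Cnn3, Pxn and Rdx did not. Leaving out each array left 37 higher and 0 lower, with a median of 1.62 to 1.70. With an equal reference gene mean 6 members were lower and the median was 1.31; it was 1.61 with equal 75th percentiles, 1.43 when quantile normalisation was repeated and 1.52 with cyclic loess. Of all genes called, 62.8% were lower as deposited, 86.5% with an equal reference gene mean, 71.1% with equal 75th percentiles, 54.9% after the second quantile normalisation and 45.4% after cyclic loess. Sign changes touched only uncalled members and pairs. With an equal reference gene mean Cotl1 was -0.30 and Parva -0.22. After the second quantile normalisation Cotl1 was -0.11, Parva -0.067, Myl9 0.10, Tpm2 0.066, Cdc42ep3 0.12 and the Cnn2 and Cnn3 pair 0.29. After cyclic loess Cotl1 was -0.0018, Myh10 0.043, Myl9 0.15, Tpm2 0.11, Cdc42ep3 0.14 and the Cnn2 and Cnn3 pair 0.19. Averaging probe sets gave 0.92 for Tpm1 and Tpm3, 0.77 for Tpm4 and Tpm3, and 14 unequal pairs in place of 12. Leaving out an array gave -0.059 to 0.025 for Cdc42ep3, -0.088 to 0.085 for Myl9, -0.12 to 0.0094 for the Cnn2 and Cnn3 pair and -0.054 to 0.35 for Tpm1 and Tpm4. The replicate numbers did not pair the arrays (correlations of deviations -0.052 to 0.060, highest with the same number for 2 of 5); with the replicate block 37 members were higher, 0 lower, and Cdc42ep3 was 0.0038. The causes of these changes were not tested. Among pathway and marker lists, counts of 0 to 4 calls in 1 direction moved when single arrays were left out, and islet and neutrophil calls fell to 0 in some of these fits. Signal over background is unknown, which limits the dimmest members.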

Other observations

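Actb is often used as a reference gene in expression assays. In these arrays its difference was 2.93 on the log2 scale, against a range of -1.27 (Ppib) to 1.88 (Ywhaz) and a median of 0.27 over 16 measured genes of a list of commonly used reference genes. Of those 16, 8 were higher, 1 lower and 7 not past the threshold (limma, adjusted p under 0.05). Making their mean equal on all arrays fixes the balance of directions among them, so no count is given for that scaling. Rps18 had a difference of -0.036, Gusb one of 0.065 and Tfrc one of 0.077, named after their values were seen.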
